A study of Mus musculus with 165 samples.

Results

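Brains of mice aged 24 months were compared with brains of mice aged 3 months. The comparison took the 17 brain libraries labelled 24 months and the 15 labelled 3 months, 32 of the 165 libraries of the series, by the age in their labels. All came from male mice of the inbred strain C57BL/6J/Ukj that were kept for aging alone, and the labels name no treatment and no mutation in either group. Polyadenylated RNA of the tissue labelled brain was sequenced as paired reads of 100 bases, 1 library per mouse. Each library belonged to 1 of 3 library preparations, called preps here, with 5, 6 and 6 libraries at 24 months and 5, 5 and 5 at 3 months. The labels do not name a brain region, and a bulk library mixes neurons, glia, vessels and blood. In such data more cells of a type and more RNA per cell cannot be told apart. The design addresses which brain genes differ between old and young adult mice.

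The adult brain holds several cell types whose genes recur below. Microglia, the resident macrophages, survey the tissue and engulf debris, and they change their gene expression when they become reactive. Astrocytes support neurons and vessels and raise intermediate filament genes when they react to injury. Oligodendrocytes make myelin and arise from precursors that still divide in the adult, and a few niches go on making neurons. Class I histocompatibility proteins display peptides from inside the cell, and complement proteins tag material for removal.

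Libraries held 30.4 to 69.9 M counts (M is 1000000) at 3 months (median 39.6 M) and 19.7 to 73.4 M at 24 months (median 39.2 M). The neuronal gene Snap25 stood at 1892 to 2520 counts per 1000000 (CPM) in the 32 libraries, and the liver gene Alb did not pass the filter on low counts. Replicate 13 of the 24-month group stood apart. Its genes deviated from their means with an SD of 0.85 on the log2 scale against at most 0.29 in the other 31 libraries, its deviations fell with transcript length (Spearman's rho across genes -0.60 against -0.47 to 0.47), and it had the lowest depth. List counts that it moves by more than 1.5 times are also given without it. Dissection also varied: the summed level of 11 choroid plexus genes ran from 129 to 9214 CPM at 3 months and from 156 to 5973 CPM at 24 months. None of these 11 genes was called, and their median log2 fold change was -1.07. Summed pituitary markers reached 564 CPM in 1 library at 3 months against a median of 1.10 CPM, and summed cerebellum markers reached 823 CPM in 1 library at 24 months against a median of 161 CPM. The part of dissection in the results below was not tested.

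Of 18013 genes tested, 2259 (12.5%) differed between 24 and 3 months at an adjusted p under 0.05 in edgeR's quasi-likelihood test with Benjamini-Hochberg adjustment. That test and threshold define "rose", "fell" and "called" below, and fold changes are log2 of 24 over 3 months with the standard error (SE). At 24 months 1300 genes were higher (7.22%) and 959 lower (5.32%). Most differences were small: 287 of the higher and 86 of the lower genes changed at least 1.5-fold, and 68 and 17 at least 2-fold. The median log2 fold change was 0.38 among higher and -0.21 among lower genes. Without replicate 13 the test called 3144 of 17973 genes (17.5%), 1678 higher (9.34%) and 1466 lower (8.16%), and 2218 of the 2259 were among them. In 15 genes (0.0833% of those tested) every 24-month library lay above every 3-month library, and in 4 genes (0.0222%) every one lay below. Without replicate 13 these counts were 23 (0.128%) and 5 (0.0278%). The 15 were Spag6, Pcdhb9, A530053G22Rik, C4b, Ly9, Upk1b, Pcdhb3, Slc11a1, Exoc3l4, Cx3cr1, AA414992, Lsp1, H2-T10, Gm16505 and Cd68, and the 4 were 9630013A20Rik, Gpr17, Rrm2 and Igfbpl1. They include genes of complement, microglia, class I histocompatibility and protocadherins on the higher side, and of oligodendrocyte precursors, DNA synthesis and new neurons on the lower side.

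**Figure D1:**
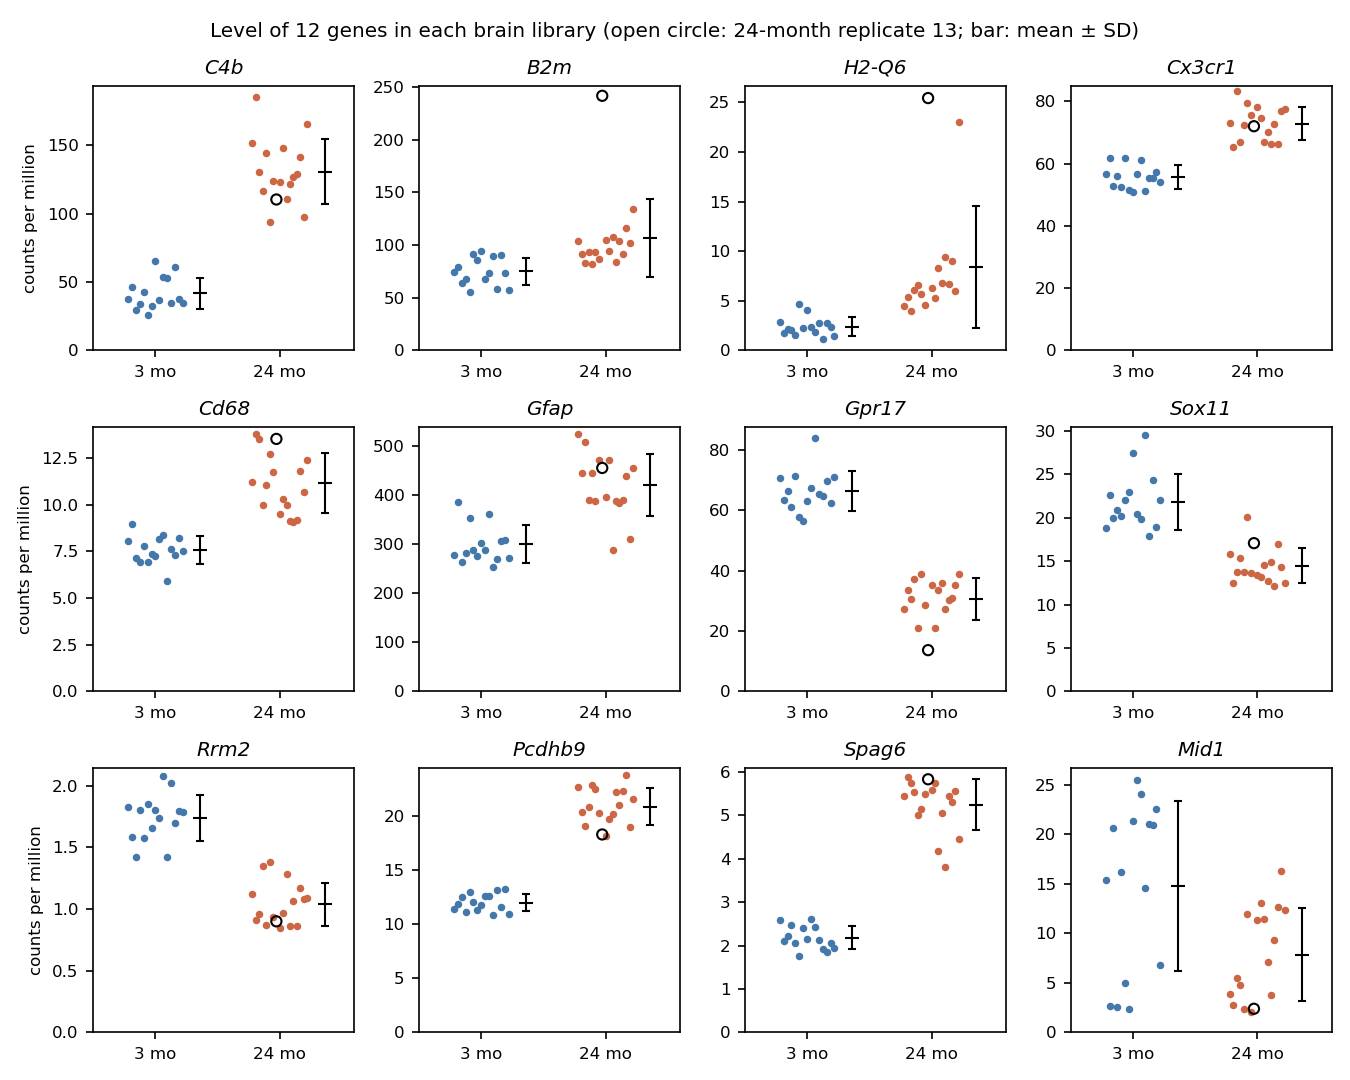
Level of 12 genes in each library, in CPM on axes from 0, with 15 libraries at 3 months (blue) and 17 at 24 months (orange); the open circle is 24-month replicate 13 and the bar is the mean ± SD. The ages do not overlap for C4b, Cx3cr1, Cd68, Gpr17, Rrm2, Pcdhb9 and Spag6, whereas Mid1 spans 2.36 to 25.5 CPM at 3 months and B2m of replicate 13 stands at 242 CPM.

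Genes of class I antigen presentation rose together. All 15 listed members, which cover the heavy chains, the light chain B2m, the peptide transporter and immunoproteasome subunits, were tested, and all 15 were called higher, with and without replicate 13. Their median log2 fold change was 0.63, or 0.59 without replicate 13, against 0.01 over all tested genes. In a fit chosen after seeing the data, without replicate 13 and with each library's slope on transcript length added, 14 were called higher.

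B2m encodes the light chain shared by class I molecules. Its level was 55.7, 73.4 and 94.2 CPM (lowest, median and highest) at 3 months and 82.3, 94.4 and 242 CPM at 24 months. The groups overlapped, with 9 of 17 libraries at 24 months above the highest at 3 months, and the log2 fold change was 0.49 ± 0.11 (SE; adjusted p 0.0027, edgeR quasi-likelihood test), or 0.39 without replicate 13. H2-Q6, a class I heavy chain gene on chromosome 17 (chr17:35424850-35430055, build GRCm38, GENCODE annotation), had the highest fold change of the list. It ran from 1.10 to 4.72 CPM (median 2.31) at 3 months and from 3.93 to 25.4 CPM (median 6.33) at 24 months. Replicates 10 and 13 held 23.02 and 25.4 CPM, above the other 15 libraries of that age, which reached 9.41 CPM. Its log2 fold change was 1.75 ± 0.24 (adjusted p 5.8e-06), or 1.56 without replicate 13. The neighbouring H2-Q7 changed by 1.66 ± 0.24, and the classical heavy chains H2-K1 and H2-D1 by 0.71 ± 0.14 and 0.62 ± 0.11. How reads shared by such near-identical genes were counted is not given in the sources used here, so the split among H2-Q6, H2-Q7 and the other heavy chains is uncertain. Psmb8, a subunit of the immunoproteasome that cuts peptides for display, ran from 2.34 to 5.11 CPM at 3 months and from 5.07 to 24.7 CPM at 24 months. It exceeded the highest 3-month library in 16 of 17 libraries (log2 fold change 0.90 ± 0.17). Tap1, a subunit of the peptide transporter, changed by 0.63 ± 0.10 and Nlrc5, a transactivator of class I genes, by 0.66 ± 0.17.

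Promoters are shown here because class I genes and interferon-responsive genes share a known control element, the interferon-stimulated response element. Its core, searched as GAAA, any 2 bases and GAAA on both strands with overlapping matches kept, occurred in 1131 of 32851 promoter windows of RefSeq genes (3.44%; 250 bases before to 50 after each start, build GRCm38.p6), or in 1079 of 27025 genes (3.99%). Among genes of the lists with an entry, 3 of 13 class I genes held it, 11 of 20 interferon-stimulated genes and 8 of 8 interferon-inducible GTPases. The 150 bases before the start are printed 5′ to 3′ in gene direction for 3 members chosen as examples among those called higher with a match, with matches in capitals: B2m chr2:122147537-122147686 on the plus strand, H2-T23 chr17:36032702-36032851 and Irgm1 chr11:48871421-48871570, both on the minus strand.
B2m: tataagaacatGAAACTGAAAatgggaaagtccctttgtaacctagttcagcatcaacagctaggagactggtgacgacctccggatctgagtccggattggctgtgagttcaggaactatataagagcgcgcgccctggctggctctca
H2-T23: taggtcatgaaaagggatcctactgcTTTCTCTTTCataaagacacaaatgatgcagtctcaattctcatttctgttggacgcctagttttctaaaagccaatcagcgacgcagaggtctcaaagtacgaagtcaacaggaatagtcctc
Irgm1: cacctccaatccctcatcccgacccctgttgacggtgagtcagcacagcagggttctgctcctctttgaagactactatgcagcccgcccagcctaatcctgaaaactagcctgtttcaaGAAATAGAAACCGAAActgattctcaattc
The match lies 139 bases before the start in B2m and 124 bases before it in H2-T23, and in Irgm1 overlapping matches begin 30 and 24 bases before it. A match of letters is not a shown binding site.

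Of 28 interferon-stimulated genes, with or without a match, 5 were called higher and 0 lower, at a median log2 fold change of 0.26. The 5 were Xaf1, Trim30a, Sp100, Lgals3bp and Oas2, with changes of 0.30 (Sp100) to 0.63 (Oas2). Trim30a lost the call on leaving out any 1 of 6 libraries and Sp100 any 1 of 9. Oas2, which senses double-stranded RNA, lay between 0.665 and 2.44 CPM at 3 months and between 0.849 and 3.94 CPM at 24 months, so that the groups overlapped widely. Isg15 and Ifit1, commonly used readouts of interferon signalling, had changes of 0.25 and 0.12 with adjusted p of 0.48 and 0.72. Of 12 interferon-inducible GTPases, which attack vacuoles of intracellular pathogens, 1 was called, Irgm1, at 0.33 ± 0.09, a share near the background. Its level ran from 7.45 to 13.2 CPM at 3 months and from 10.4 to 20.6 CPM at 24 months. Of 7 class II presentation genes 2 rose: the protease gene Ctss (0.55 ± 0.07) and H2-DMb1 (0.58 ± 0.12), which encodes part of a peptide exchange factor.

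Complement genes made the second group. Of 12 tested, 9 rose and 0 fell, and the median log2 fold change was 0.56 (0.54 without replicate 13). C4b, a component cleaved early in the classical and lectin pathways (chr17:34728380-34743882, minus strand), ran from 26.0 to 65.1 CPM at 3 months (median 37.5) and from 93.6 to 185 CPM at 24 months (median 127). All 17 libraries at 24 months lay above all 15 at 3 months, with a 3.13-fold difference (log2 1.65 ± 0.12, adjusted p 1.1e-11). C4a, a near-identical neighbour, showed a log2 fold change of 0.00 at 2.14 to 3.73 CPM; reads shared by the pair make both values uncertain. The subunits of C1q, which starts the classical pathway and is made by microglia in the brain, rose by 0.61 ± 0.10 (C1qa), 0.53 ± 0.10 (C1qb) and 0.51 ± 0.07 (C1qc). C3, on which all complement pathways converge, ran from 0.325 to 3.06 CPM at 3 months and from 0.689 to 6.05 CPM at 24 months. Its groups overlapped and its log2 fold change was 1.15 ± 0.29. The receptors C3ar1 (0.66 ± 0.08) and C5ar1 (0.57 ± 0.13) and the C1 protease genes C1s1 (0.67 ± 0.17) and C1ra (0.56 ± 0.15) also rose.

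**Figure D2:**
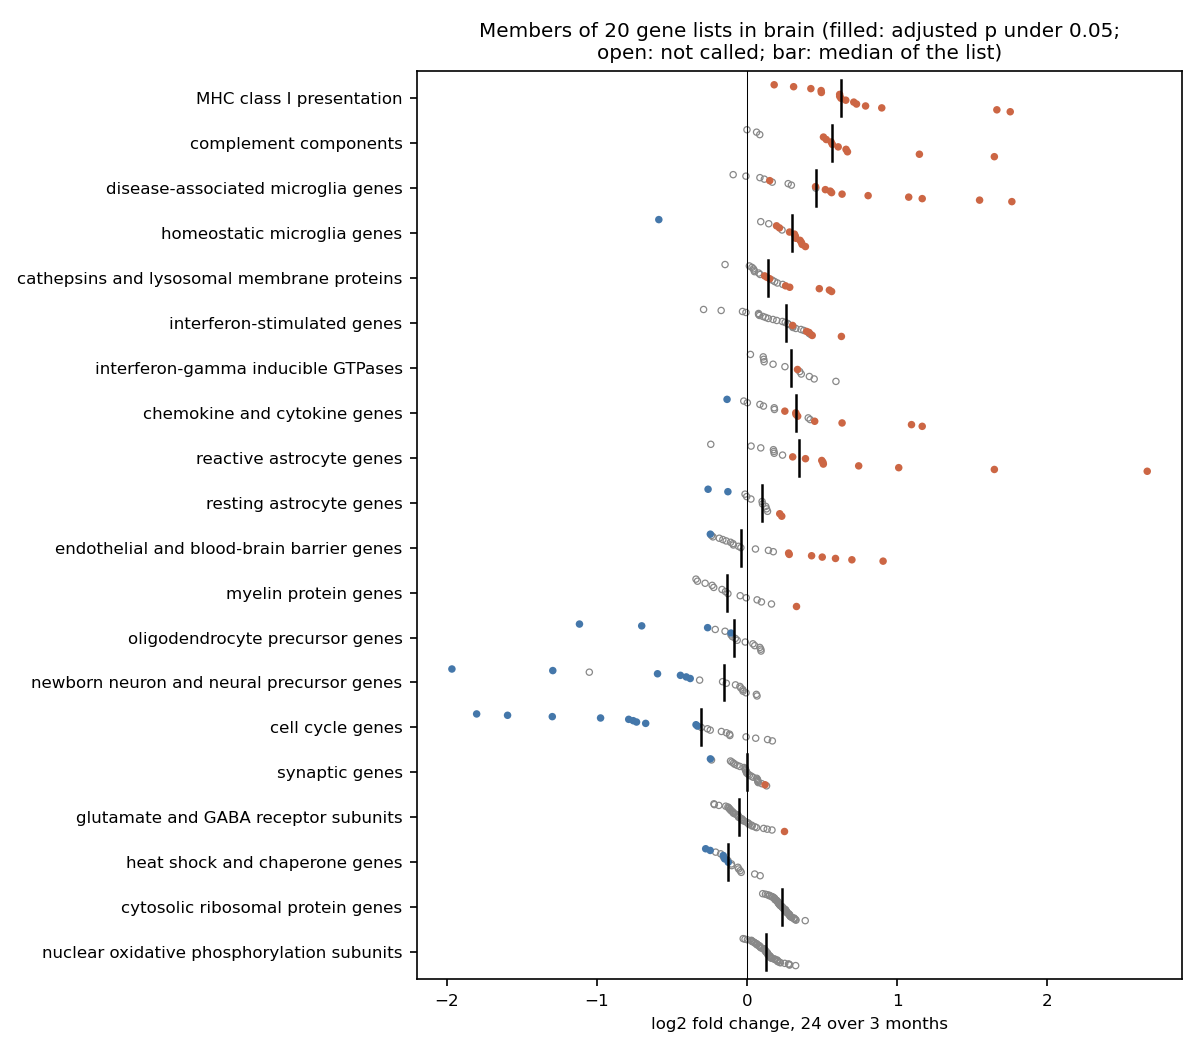
Log2 fold change of each tested member of 20 gene lists, with filled points for genes called higher (orange) or lower (blue), open points for genes not called and a bar at each list's median. The 15 class I presentation genes lie to the right of 0 and are filled, and the 10 called cell cycle genes lie to the left. All 53 ribosomal protein genes lie to the right of 0 without a call, at a median of 0.23 (0.11 without 24-month replicate 13).

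Many microglial genes rose, including genes of resting cells. Of 19 genes known from disease-associated microglia 11 rose and 0 fell, at a median of 0.46. Of 14 genes of resting microglia 10 rose and 1 fell. The 6 genes listed as defining markers of microglia all rose, and their summed level was 338 to 415 CPM at 3 months and 385 to 628 CPM at 24 months, with 16 of 17 libraries above the highest at 3 months. The part of this shift in the microglial lists was not tested.

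Cx3cr1, the receptor through which microglia receive the neuronal signal fractalkine, ran from 50.7 to 61.9 CPM (median 55.4) at 3 months and from 65.4 to 83.3 CPM (median 72.7) at 24 months. The groups did not overlap although the change was only 1.31-fold (log2 0.39 ± 0.04, adjusted p 9.3e-09). Fractalkine itself, Cx3cl1, fell by 0.13 on the log2 scale (SE 0.03). Cd68, a lysosomal glycoprotein of phagocytes, also separated the ages, at 5.91 to 8.94 against 9.09 to 13.8 CPM (0.56 ± 0.06). Clec7a, a receptor for fungal glucans that marks reactive microglia, was 0.118 to 0.742 CPM at 3 months and 0.636 to 1.91 CPM at 24 months. It exceeded the 3-month range in 16 of 17 libraries, with a log2 fold change of 1.55 ± 0.17. Cst7, a cystatin, changed by 1.76 ± 0.28 from a median of 0.127 CPM, and Lyz2, lysozyme, by 1.08 ± 0.14. Trem2, a lipid receptor needed for the reactive state, rose by 0.55 ± 0.11 and its adaptor Tyrobp by 0.52 ± 0.10. Both were highest in replicate 13, at 38.6 and 38.8 CPM, and gave 0.45 and 0.43 without it. The member that fell was Fcrls, an Fc receptor-like gene typical of resting microglia. It ran from 4.57 to 6.26 CPM at 3 months and from 2.60 to 5.19 CPM at 24 months, with 15 of 17 libraries below the lowest at 3 months (-0.59 ± 0.08, adjusted p 1.2e-05). Of the other resting genes, P2ry12 and Tmem119 rose by 0.22 ± 0.06 and 0.32 ± 0.07. Of 20 cathepsin and lysosomal genes 8 rose, led by Cd68, Ctss and Ctso (0.26 ± 0.04), and 0 fell.

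Of 16 reactive astrocyte genes 9 rose and 0 fell, with a median of 0.35. Gfap, the intermediate filament of astrocytes, ran from 253 to 387 CPM (median 287) at 3 months and from 289 to 525 CPM (median 438) at 24 months. In 14 of 17 libraries it lay above the highest at 3 months (0.50 ± 0.07, adjusted p 4.4e-06). Vim, its partner filament, rose by 0.30 ± 0.10, Osmr, a cytokine receptor chain, by 0.51 ± 0.12, and Ggta1, which builds a galactose epitope, by 0.51 ± 0.07. Of 12 resting genes 2 rose (Fgfr3, 0.22 ± 0.05, and Ndrg2, 0.23 ± 0.05) and 2 fell; without replicate 13, 5 rose and 2 fell. Aqp4, the water channel of astrocyte endfeet, was 142 to 179 CPM at 3 months and 89.0 to 172 CPM at 24 months (-0.26 ± 0.07). In 11 of 17 libraries it lay below the 3-month range. In a fit of all 82 brain libraries neither Aqp4 nor Ndrg2 was called (adjusted p 0.19 and 0.056, edgeR quasi-likelihood test). The gap junction gene Gja1 fell by 0.13 on the log2 scale (SE 0.04). Exons of Fgfr3 overlap another gene on the opposite strand in the annotation used, and whether counting used strand is not given in the sources used here.

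Inflammatory secreted genes and blood cell markers were higher in part of the old brains. S100a8 and S100a9, which form the neutrophil protein calprotectin, changed by 2.04 ± 0.41 and 1.88 ± 0.41. Lcn2, an iron-sequestering lipocalin made by neutrophils and reactive glia, changed by 2.67 ± 0.55 (adjusted p 0.0014). Lcn2 was 0 to 1.49 CPM (median 0.196) at 3 months and 0.212 to 9.03 CPM (median 1.15) at 24 months. For each of these 3 genes, 6 of 17 libraries at 24 months exceeded the highest at 3 months and the rest lay within the 3-month range. Of 10 neutrophil markers 4 passed the filter, and these 4 (S100a8, S100a9, Ngp and Csf3r) rose. The granule and surface genes Elane, Mpo, Ltf, Camp, Retnlg and Ly6g did not pass it. A gene scarce at 3 months can pass the filter through its 24-month level alone. The share that rose among those tested can therefore be raised by the filter itself. The summed level of the list was 7.00 to 14.1 CPM (median 9.32) at 3 months and 10.0 to 25.8 CPM (median 14.5) at 24 months. A separate list of secreted genes that holds S100a8 and S100a9 summed to medians of only 2.37 and 5.99 CPM. Of 5 red cell genes 4 were called higher, 2 without replicate 13 and 0 when the length slope was added as well. Hbb-bs, adult beta globin, ran from 16.7 to 127 CPM at 3 months and from 19.7 to 240 CPM at 24 months, and replicates 10 and 13 held 240 and 239 CPM, the same libraries that were highest for H2-Q6. The part of blood in these brains in the inflammatory genes was not tested.

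Among lymphocyte genes, Cd52 and Itgal were called higher of 7 T cell and cytotoxic genes tested, while Cd3d, Cd3e, Cd3g, Cd8a and Cd8b1 did not pass the filter. Both are also expressed by other leukocytes. Cd52, a surface glycoprotein of leukocytes, was 0.886 to 1.76 CPM at 3 months and 1.70 to 7.36 CPM at 24 months (0.88 ± 0.15, or 0.74 without replicate 13). Of 8 B cell and immunoglobulin genes 1 was called, Cd79b (0.80 ± 0.23), the same share as the background of 12.5%. Of 17 chemokine and cytokine genes 8 rose and 1 fell. The macrophage chemokines Ccl3, which did not pass the filter without replicate 13, and Ccl12 rose by 1.17 ± 0.25 and 1.10 ± 0.21, Ccl6 by 0.63 ± 0.11 and the growth factor gene Tgfb1 by 0.34 ± 0.06.

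Vascular genes were mixed. Of 21 endothelial and barrier genes 7 rose and 1 fell, or 2 fell without replicate 13, and the median was -0.04. Vwf, the clotting glycoprotein stored in endothelial cells, ran from 12.0 to 34.4 CPM at 3 months and from 14.3 to 119 CPM at 24 months (0.91 ± 0.26), with 5 of 17 libraries above the 3-month range. Icam1, an adhesion molecule for leukocytes, rose by 0.59 ± 0.16 and Plvap, a protein of leaky endothelium, by 0.50 ± 0.11. Ly6a was 12.9 to 24.8 CPM at 3 months and 14.7 to 58.0 CPM at 24 months (0.70 ± 0.17). Pecam1 and the glucose transporter Slc2a1 each rose by 0.28, and Itm2a fell by 0.24 on the log2 scale. Summed endothelial markers overlapped between the ages, at 210 to 299 and 194 to 360 CPM.

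In the oligodendrocyte lineage, Gpr17 separated the ages. Gpr17, a receptor found in precursors that are about to differentiate, ran from 56.3 to 84.0 CPM (median 65.2) at 3 months and from 13.7 to 38.9 CPM (median 31.1) at 24 months. Every 24-month library lay below every 3-month library, and the log2 fold change was -1.12 ± 0.10 (adjusted p 1.2e-09), or -1.07 without replicate 13, which held the lowest value. Its exons overlap those of Lims2 on the opposite strand by 188 bases in the annotation. Of 16 precursor genes 4 fell and 0 rose: Gpr17, Bmp4 (-0.70 ± 0.17), Neu4 (-0.26 ± 0.06) and the kinase gene Fyn (-0.11 ± 0.03), at a median of -0.09. Without replicate 13, 4 fell and 1 rose. Of 14 genes in the myelin list 1 was called, Il33 (0.32 ± 0.10), which encodes a cytokine and not a myelin protein. The other 13 were not called, and the called share over all tested genes is 12.5%. Mbp, a major myelin protein, varied from 1055 to 4973 CPM at 3 months and from 1319 to 2947 CPM at 24 months and was not called (0.07 ± 0.14, adjusted p 0.79). The 6 oligodendrocyte markers were not called.

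Among genes of dividing cells and of new neurons, the called members were lower. Of 21 cell cycle genes 10 fell and 0 rose, at a median of -0.31, and of 18 genes of newborn neurons and neural precursors 6 fell and 0 rose, at a median of -0.15. Rrm2, a subunit of ribonucleotide reductase, which supplies DNA precursors, ran from 1.42 to 2.08 CPM at 3 months and from 0.849 to 1.38 CPM at 24 months (-0.74 ± 0.08, adjusted p 8.9e-08), with no overlap. Top2a, the topoisomerase of dividing cells, fell from a median of 1.28 to 0.386 CPM (-1.80 ± 0.19). Mki67, the proliferation marker, changed by -1.30 ± 0.17 and Cenpf, a centromere protein, by -0.98 ± 0.11. Igfbpl1, expressed in new neurons, was 0.721 to 2.66 CPM at 3 months and 0 to 0.689 CPM at 24 months and also did not overlap (-1.97 ± 0.24). Draxin, an axon guidance gene, changed by -1.29 ± 0.18. The transcription factors Sox11 and Sox4 of immature neurons changed by -0.60 ± 0.07 and -0.44 ± 0.06, and each lay below the 3-month range in 16 of 17 libraries. Dcx, a microtubule protein of migrating neurons, was not called and its level overlapped, at 17.2 to 35.6 against 13.2 to 40.5 CPM (-0.05 ± 0.11, adjusted p 0.79). Of 9 replication-dependent histone genes 3 fell: Hist1h1e (-0.74 ± 0.23), Hist1h2be (-0.47 ± 0.14) and Hist1h1c (-0.44 ± 0.14). Without replicate 13, 5 fell. Hist1h1e lost the call on leaving out any 1 of 7 libraries, Hist1h1c any 1 of 4 and Hist1h2be 3-month replicate 16. Most histone messages lack a long poly(A) tail, so polyadenylated libraries capture them in part.

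Clustered protocadherins are adhesion proteins that give single neurons distinct surface identities. With all libraries, genes of 1 of their 3 clusters were called, and without replicate 13 genes of each cluster were. Of 22 tested genes of the beta cluster 13 rose and 1 fell (median 0.30), while 0 of 13 in the alpha cluster and 0 of 22 in the gamma cluster were called (medians -0.12 and -0.10). The difference between the clusters was not tested. Pcdhb9 ran from 10.9 to 13.3 CPM at 3 months and from 18.2 to 23.8 CPM at 24 months, a 1.74-fold difference without overlap (0.80 ± 0.04, adjusted p 2.4e-15). Pcdhb3 was 5.24 to 8.12 and 8.42 to 13.7 CPM and did not overlap either (0.69 ± 0.06). Pcdhb6 changed by 0.85 ± 0.09 and Pcdhb5 by 0.49 ± 0.06. Pcdhb18 fell, from a median of 9.01 to 7.47 CPM (-0.26 ± 0.06). The lack of calls in the alpha and gamma clusters depends on replicate 13, in which Pcdhga2 stood at 0.424 CPM against a median of 13.6 CPM at 24 months. Without it 4 gamma genes rose and 2 fell, 3 alpha genes fell, and 15 beta genes rose and 1 fell. Pcdhga2 then gave 0.61 (adjusted p 8.9e-06) against 0.53 (adjusted p 0.056) with all libraries. The summed level of the 57 genes was 433 to 604 CPM at 3 months and 167 to 607 CPM at 24 months, lowest in replicate 13. Beta genes are much alike in sequence, and alpha and gamma genes share exons within their cluster, so the split of reads among members is uncertain.

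**Figure D3:**
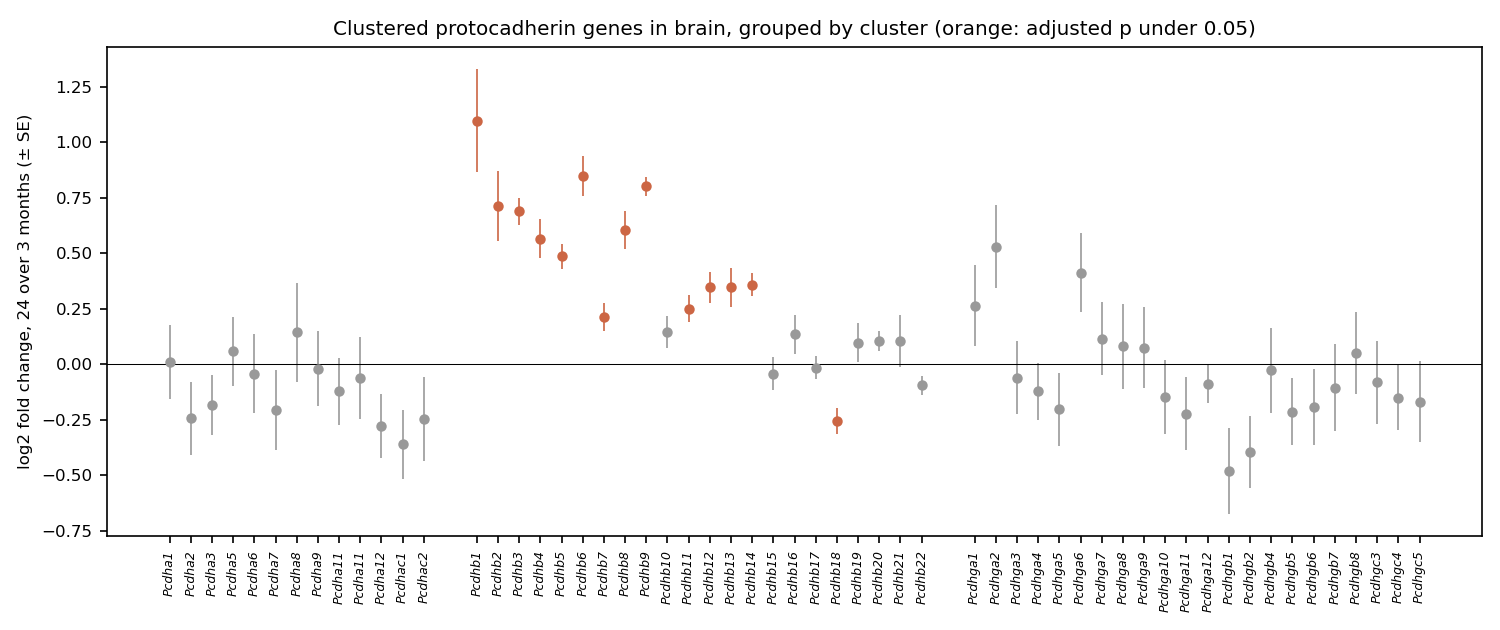
Log2 fold change ± SE of 57 clustered protocadherin genes by cluster, in the order of their names, with called genes in orange. The 14 called genes lie in the beta cluster, 13 above 0 and Pcdhb18 below it.

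Genes with the smallest p-values or highest fold changes outside these lists were of varied function. Spag6, a gene of the central apparatus of motile cilia (chr2:18694032-18750413), had the smallest p-value among the named genes, at 1.75 to 2.62 CPM (median 2.12) at 3 months and 3.80 to 5.88 CPM (median 5.44) at 24 months. It did not overlap between the ages (1.27 ± 0.06, adjusted p 1.7e-15). The other 7 cilia and ependyma genes of the list had changes below 0 and were not called, including the ciliary regulator Foxj1 (-0.38 ± 0.18, adjusted p 0.15). Exons of Spag6 overlap Gm20539 on the opposite strand by 283 bases. Upk1b, a tetraspanin, was 0.951 to 1.59 CPM at 3 months and 1.93 to 4.56 CPM at 24 months (1.19 ± 0.10). Lin28b, an RNA-binding repressor of let-7 microRNAs, ran from 3.71 to 6.83 CPM and from 6.62 to 11.8 CPM, with 16 of 17 libraries above the 3-month range (0.96 ± 0.09). AA414992, annotated as a transcript to be experimentally tested, was 0.0868 to 0.881 CPM at 3 months and 1.27 to 4.51 CPM at 24 months (2.57 ± 0.25). The pseudogene Fbxw23 changed by 1.87 ± 0.21. Among genes that separated the ages but fall outside the naming rule, and so were chosen after their values were seen, the lymphocyte receptor gene Ly9 ran from 0.0802 to 0.418 and from 0.726 to 1.64 CPM. The clone-named 9630013A20Rik ran from 1.58 to 6.74 and from 0.193 to 0.773 CPM, a log2 fold change of -2.65 ± 0.20.

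The lowest fold changes included genes of matrix and signalling, and several of them varied widely at 3 months. Mid1, a ubiquitin ligase gene on the X chromosome (chrX:169685199-170005736), was 2.36 to 25.5 CPM at 3 months and 2.07 to 16.3 CPM at 24 months, with overlapping ranges. Its log2 fold change of -1.02 ± 0.33 (adjusted p 0.036) lost the call on leaving out any 1 of 10 libraries, at -1.11 to -0.91 over single omissions. Gpx8, a peroxidase of the endoplasmic reticulum, was 2.54 to 13.3 CPM at 3 months and 1.29 to 7.97 CPM at 24 months, with 13 of 17 libraries below the 3-month range (-0.94 ± 0.22). Col3a1, a fibrillar collagen, gave -0.85 ± 0.26 with overlapping groups and lost the call without 24-month replicate 5, 3-month replicate 5 or 3-month replicate 8. Tnfrsf25, a death-domain receptor, fell from a median of 24.9 to 13.0 CPM (-0.87 ± 0.15), and Fst, follistatin, from 1.40 to 0.978 CPM (-0.76 ± 0.15). Cbx8, a Polycomb subunit, was 7.28 to 10.2 CPM at 3 months and 4.86 to 8.69 CPM at 24 months (-0.51 ± 0.06). Of 26 non-collagen matrix genes 4 fell and 1 rose. Tnc, tenascin C of germinal niches, ran from 5.21 to 11.3 CPM at 3 months and from 3.08 to 7.82 CPM at 24 months (-0.79 ± 0.11), and the perineuronal proteoglycans Ncan and Acan changed by -0.28 ± 0.05 and -0.29 ± 0.09. Sparc rose by 0.35 ± 0.07. Of 22 collagen genes 2 rose (Col5a3 and Col6a2) and 2 fell (Col3a1 and Col1a2); without replicate 13 and with the length slope 5 rose and 2 fell. The background shares are 7.22% higher and 5.32% lower, near those of the collagen list. Summed meningeal fibroblast markers, a list that holds Col1a2, ranged from 211 to 890 CPM at 3 months and from 208 to 1510 CPM at 24 months.

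Neuronal lists held few called genes, and in the synaptic, receptor and neuropeptide lists the called share lay below the background of 12.5%. Of 26 synaptic genes 1 rose, Gad1, which makes GABA (0.12 ± 0.04), and 1 fell, the scaffold gene Homer1 (-0.24 ± 0.08); their median was 0.00. Homer1 lost the call without replicate 13 (-0.23, adjusted p 0.051), and then 2 rose and 0 fell. Gad1 lost the call on leaving out any 1 of 17 libraries. Snap25, a vesicle fusion protein, had medians of 2159 and 2322 CPM and was not called (0.07 ± 0.04, adjusted p 0.20). Of 35 glutamate and GABA receptor subunits 1 was called, Grin2c (0.25 ± 0.08), and 0 without replicate 13 and with the length slope. Of 17 immediate early genes, which follow neuronal activity, Arc and Jun fell, a called share near the background. Arc ran from 88.9 to 226 CPM (median 134) at 3 months and from 58.4 to 179 CPM (median 79.4) at 24 months, with 11 of 17 libraries below the 3-month range (-0.50 ± 0.16, adjusted p 0.033), and lost the call without any 1 of 8 libraries. Jun lost the call without any 1 of 7 libraries and in a fit of all 82 brain libraries (adjusted p 0.099, edgeR quasi-likelihood test). Without replicate 13 and with the length slope 0 of the 17 immediate early genes were called. Of 21 neuropeptide genes Npy rose (0.28 ± 0.08) and 0 fell, or 1 fell without replicate 13. Npy lost the call without 3-month replicate 13 and in a fit of all 82 brain libraries (adjusted p 0.051 and 0.17, edgeR quasi-likelihood test). Of 16 clock genes Cry2 rose (0.10 ± 0.03), and Nfil3 and Per2 fell (-0.30 ± 0.08 and -0.23 ± 0.07). The called share over all tested genes is 12.5%. In a fit of all 82 brain libraries Per2 was not called (adjusted p 0.077, edgeR quasi-likelihood test). The time of day of collection is not given in the sources used here. Of 14 glucocorticoid-responsive genes Mt1 and Sult1a1 rose, by 0.44 ± 0.14 and 0.45 ± 0.14, a called share near the background of 12.5%. Mt1 lost the call on leaving out any 1 of 4 libraries and Sult1a1 any 1 of 8; Mt1 gave 0.28 without replicate 13, which held 425 CPM.

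Of 17 heat shock and chaperone genes 5 fell, 12 were not called and 0 rose, at a median of -0.13. Without replicate 13, 7 fell, and with the length slope added as well 3 fell. Hsph1, which helps HSP70 release its clients, ran from 258 to 441 CPM (median 330) at 3 months and from 224 to 326 CPM (median 275) at 24 months, with 5 of 17 libraries below the 3-month range (-0.28 ± 0.06, adjusted p 0.0011). Chordc1, Dnaja1, Hsp90aa1 and Hspd1 changed by -0.25 ± 0.07, -0.16 ± 0.04, -0.15 ± 0.05 and -0.13 ± 0.04. A heat shock element, searched as GAA, TTC and GAA spaced by any 2 bases on both strands with overlaps kept, stood in the promoter windows of 4 of 13 members with an entry, against 0.662% of all genes with an entry. The 150 bases before the start of Hspd1, the mitochondrial chaperonin, are shown because Hspd1 shares this upstream region with Hspe1 on the other strand (chr1:55087933-55088082, minus strand, build GRCm38.p6, RefSeq, overlapping matches in capitals, beginning 144 and 139 bases before the start).
Hspd1: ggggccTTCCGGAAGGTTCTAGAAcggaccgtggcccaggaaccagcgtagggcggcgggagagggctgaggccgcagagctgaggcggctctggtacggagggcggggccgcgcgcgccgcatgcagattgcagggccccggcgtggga
Hspe1, its cochaperonin, was not called (0.09 ± 0.10). Of 19 endoplasmic reticulum stress genes 1 fell, the disulfide isomerase gene Pdia4 (-0.33 ± 0.09), and 3 fell without replicate 13. The share of 1 in 19 is near the background of 5.32% lower. Of 14 antioxidant targets of Nrf2 3 rose, led by the glutathione transferase gene Gstm1, at 170 to 224 against 203 to 317 CPM (0.35 ± 0.05). Of 18 cholesterol synthesis genes 2 rose, among them Fdft1, which encodes squalene synthase (0.20 ± 0.06), and 0 fell; without replicate 13, 4 rose and 2 fell. The called share of 2 in 18 lies near the background of 12.5%.

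Of 8 tested genes linked to senescence 1 rose and 1, the cell cycle inhibitor gene Cdkn1b, fell (-0.18 ± 0.05). Without replicate 13, 2 fell. Over all tested genes 7.22% were higher and 5.32% lower. Cdkn1a, the p53 target p21, ran from 6.27 to 14.4 CPM and from 4.80 to 17.6 CPM and was not called (0.09 ± 0.14, adjusted p 0.71). Cdkn2a, which encodes p16, did not pass the filter.

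Few genes of energy and protein production were called. Of 53 cytosolic ribosomal protein genes 0 were called although 53 had a fold change above 0, with a median of 0.23 that was 0.11 without replicate 13. Without it 6 were called higher, and 1 with the length slope added as well. Of 49 nuclear subunits of oxidative phosphorylation 0 were called, at a median of 0.13, or 0.02 without replicate 13, when 1 was called higher. With the length slope added as well 0 were higher and 3 lower. Of 31 proteasome genes 0 were called, and without replicate 13, 3 were called lower. Against 7.22% of all tested genes, 2 of 13 mitochondrially encoded genes were called higher, at a list median of 0.17. They were mt-Nd1 (0.16 ± 0.04) and mt-Nd6 (0.31 ± 0.11). Without replicate 13, 5 were called higher at a median of 0.23, and mt-Nd6 was not (adjusted p 0.059). Genes called higher had a median exon length of 3302.5 bases and genes called lower of 5365.5 bases, against 3952 over all tested genes, and the part of library length bias in these lists was not tested beyond the fits without replicate 13 and with the length slope.

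Within single preps fewer genes passed the threshold. Prep 1 alone called 97 genes, prep 2 called 10 and prep 3 called 215. No gene was called for a different age change between preps, with 203 of 18013 at an unadjusted p under 0.05.

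The 24-month libraries were set beside the other ages of the series in a fit of all 82 brain libraries, which share the 24- and 3-month libraries with the comparison above. From 15 to 24 months 137 of 18711 genes differed (0.732%; 127 higher, 0.679%, and 10 lower, 0.0534%), among them 15 of the 100 genes named by rule, 14 higher and 1 lower. These counts depend on 28-month replicate 15: without it 294 genes differed (1.57%; 259 higher, 1.38%, and 35 lower, 0.187%), 30 of them among the 100. Without 24-month replicate 13 the lower count was 5. Each gene said here to rise or fall in an interval was called in it with and without either library. Lyz2 had means of 7.33, 8.15, 8.95, 15.4 and 19.6 CPM at 3, 9, 15, 24 and 28 months and rose by 0.81 ± 0.12 from 15 to 24 months (adjusted p 8.9e-06). Gfap (0.39 ± 0.08), B2m (0.42 ± 0.09), H2-Q6 (0.96 ± 0.21) and Lcn2 (2.14 ± 0.46) also rose in that interval. C4b rose both from 3 to 9 months (0.47 ± 0.10) and from 15 to 24 months (0.86 ± 0.10), with means of 41.7, 57.9, 71.8, 131 and 210 CPM. Gpr17 fell at both steps, by 0.43 and by 0.51 on the log2 scale, with means of 66.4, 49.4, 44.0, 30.6 and 21.5 CPM. From 24 to 28 months 204 genes differed (1.09%; 99 higher, 0.529%, and 105 lower, 0.561%), against 525 without 28-month replicate 15 (2.81%; 251 higher, 1.34%, and 274 lower, 1.46%) and 508 without 24-month replicate 13 (2.72%). Of the 204, 11 were among the 100, with C4b higher at 28 than at 24 months (0.68 ± 0.09) and Gpr17 (-0.51 ± 0.10), Fcrls (-0.49 ± 0.11) and Tnc (-0.43 ± 0.11) lower, each called with and without either library.

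From 3 to 9 months 59 genes differed (0.315%; 35 higher, 0.187%, and 24 lower, 0.128%), 13 of them among the 100. Without 28-month replicate 15 the count was 123 (0.658%; 73 higher, 0.39%, and 50 lower, 0.267%), 17 of them among the 100. Gpx8 had means of 4.78 CPM at 3 months and 2.45, 2.66, 2.52 and 2.62 CPM after it, and Col3a1 of 3.81 CPM at 3 months and 1.54 to 2.11 CPM after it. Both fell from 3 to 9 months (-0.93 ± 0.22 and -1.10 ± 0.23) and gave -0.04 ± 0.22 and 0.15 ± 0.23 from 15 to 24 months. Spag6 had means of 2.18, 3.71, 4.32, 5.25 and 5.79 CPM and rose by 0.76 ± 0.10 from 3 to 9 months. Sox11 (-0.39 ± 0.09) and Rrm2 (-0.43 ± 0.09) fell in the same early interval.

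**Figure D4:**
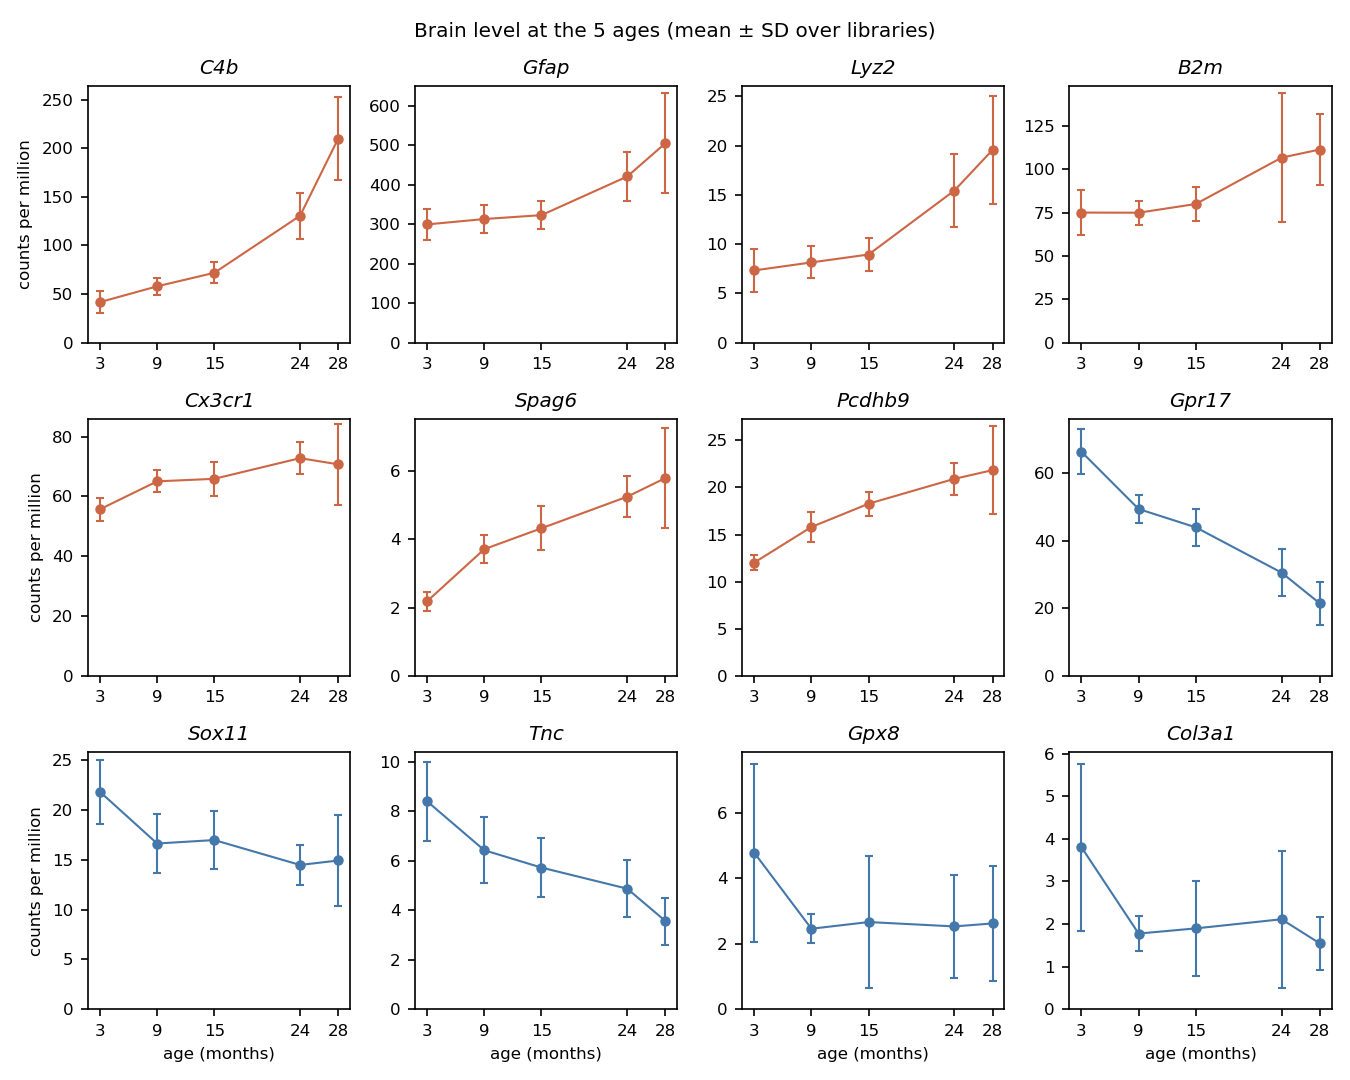
Mean level ± SD in CPM of 12 genes in brain at 3, 9, 15, 24 and 28 months, on axes from 0, with genes higher at 24 months in orange and lower in blue. the means of Lyz2, Gfap and B2m differ more between 15 and 24 months than between 3 and 15 months, the mean of C4b rises and that of Gpr17 falls from each age to the next, and Gpx8 and Col3a1 drop between 3 and 9 months.

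The same age contrast in liver gave a reference for which changes differ between tissues. Liver called 6246 of 14580 genes (42.8%) between 24 and 3 months, and the change differed between brain and liver for 3766 of 13288 genes tested in both (28.3%). Of the 97 named genes called in brain, 42 differed. C4b rose more in brain than in liver, where it changed by 0.46 from a mean of 1531 CPM (difference 1.15 ± 0.19, adjusted p 4.2e-06). H2-Q6 and H2-Q7 also rose more in brain (differences 0.86 and 0.83). Cx3cr1 rose more in liver, by 1.82 from a mean of 1.01 CPM (difference -1.47 ± 0.29). Tnc fell in brain and rose in liver, by 0.85 (difference -1.66 ± 0.23, adjusted p 2e-07), and Gpx8 likewise (liver 0.49, difference -1.46 ± 0.26).

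**Figure D5:**
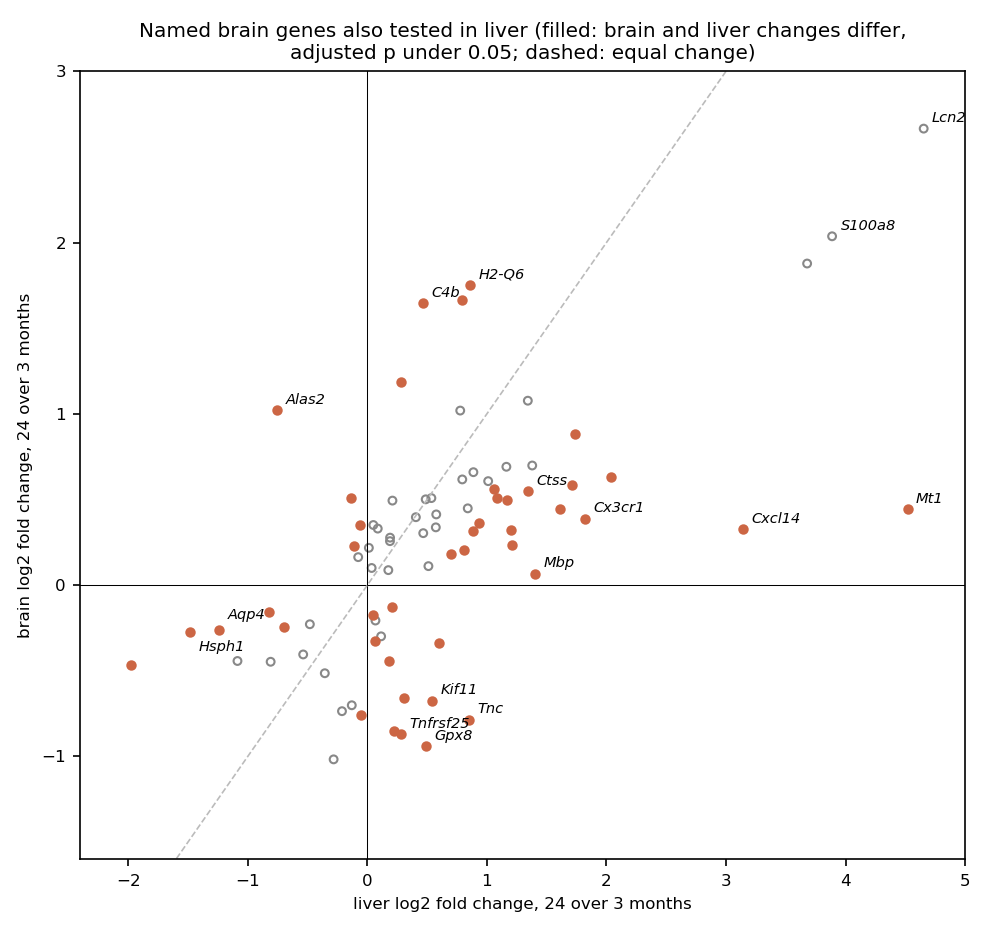
Log2 fold change from 3 to 24 months in brain against that in liver for 80 named genes tested in both tissues, with filled points where the 2 changes differ and a dashed line of equal change. C4b and H2-Q6 lie above the line, Mt1, Cxcl14 and Cx3cr1 to the right of it, and Tnc and Gpx8 in the quadrant of opposite directions.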

How the data were processed

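Brain and liver RNA of male mice was extracted with QIAzol and chloroform and made into libraries with a stranded TruSeq kit after poly(A) enrichment, per the labels' protocols. The authors deposited raw whole-number counts per gene, 1 table per tissue. The submitters' processing notes name cutadapt 2.8, HISAT2 2.1.0, SAMtools 1.9, featureCounts of Subread 2.0.1 and GRCm38.p6; strand settings, annotation release and the handling of shared reads are not given in the sources used here. Of 55471 gene identifiers 55144 matched a symbol, and positions and exon lengths come from GENCODE mouse release 21.

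The 32 brain libraries of both ages were fitted with edgeR 4.0.16 in R 4.3.3: filterByExpr, TMM factors, age and prep as terms, a two-sided quasi-likelihood test and Benjamini-Hochberg adjustment over 18013 genes, called under 0.05. SE was taken as the size of the log2 fold change over the root of its F statistic. CPM use TMM factors over 82 brain libraries. Tissue by age was 1 fit over both tissues. Fits were tested on simulated counts. Alternatives used limma 3.58.1 (voom) and DESeq2 1.42.0, among others.

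Named genes, 100 in all, were the 8 highest and 8 lowest fold changes, the 5 smallest p-values per direction, up to 3 called genes per list and 9 fixed genes. The first rules took called genes that were called without replicate 13, had a mean of at least 1 CPM, the same direction in each prep and a symbol that is no clone name. The comparison, the 57 lists and the rules were chosen with earlier results of these data known. P-values measure the spread between these libraries, which the labels number as separate replicates. Counts could not separate PCR copies from molecules. Values of some genes in these lists are not reported here.

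Replicate numbers did not pair the ages: over 15 pairs of equal number the correlation of deviations ran from -0.36 to 0.23, and 3 exceeded 0.1. Brain and liver libraries of the same age and number carry 1 name in the labels and were taken as 1 mouse.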

Additional observations from a re-analysis of the deposited data

Results flagged for a closer look

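For 42 named genes called in brain, the change from 3 to 24 months differed from that in liver by the tissue by age term (edgeR quasi-likelihood test, adjusted p under 0.05). Values below are differences in log2 fold change, brain minus liver. Of these genes 8 rose in brain by more than in liver: Alas2 (1.75), C4b (1.15), Upk1b (0.88), H2-Q6 (0.86), H2-Q7 (0.83), Col5a3 (0.62), Gstm1 (0.38) and Ndrg2 (0.31).

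In 17 genes the rise in brain was smaller than the change in liver. Among them the differences were -4.13 for Mt1, which went from a mean of 12.3 to 276 CPM in liver, -2.87 for Cxcl14, -1.47 for Cx3cr1, -1.45 for Ccl6 and -1.20 for Csf3r. They were -1.16 for H2-DMb1, -1.01 for Hmox1, -0.91 for Il33, -0.89 for Cd52, -0.83 for Ctss, -0.69 for Gfap and -0.64 for Fdft1. For C1qc the difference was -0.61, for Kcnj8 -0.60 and for Cd68 -0.52.

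In 12 genes lower in brain the difference was also below 0: Tnc (-1.66), Gpx8 (-1.46), Kif11 (-1.25), Tnfrsf25 (-1.19), Col3a1 (-1.08), Col1a2 (-0.99), Mcm6 (-0.97), Fst (-0.73), Sox4 (-0.66), Pdia4 (-0.42), Gja1 (-0.37) and Cdkn1b (-0.26). In 5 genes lower in brain the liver value was lower still, with differences of 1.502 for Hist1h2be, 1.18 for Hsph1, 0.96 for Aqp4, 0.64 for Dnaja1 and 0.42 for Chordc1.

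With mouse as a block, which pairs the tissues of 1 animal, Gstm1, Col5a3, Cdkn1b, Gja1 and Hist1h2be were no longer called (adjusted p 0.062, 0.077, 0.051, 0.11 and 0.59), and the differences of Mt1 and Cxcl14 were -2.18 and -1.43. Without mouse 13 of the 24-month group, Cd68, Gstm1, Cd52 and Kif11 were no longer called (adjusted p 0.077, 0.066, 0.051 and 0.067).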

How the results depend on the processing

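The count of 2259 genes was kept within 1.5 times by other size factors, filters, DESeq2, a fit without the prep term, a fit of 82 brain libraries, the clock gene score and the length slope, at 1737 to 3071 genes. Upper quartile factors turned the split to 1640 higher and 643 lower (71.8% higher, against 57.5%). Without 1 library at a time the fit called 1704 to 3144 genes, 1049 to 1678 higher and 655 to 1466 lower; the lowest values came without 3-month replicate 16 and the highest without 24-month replicate 13. Counts of all genes, higher and lower moved to 3493, 1988 and 1505 with all brain libraries but 28-month replicate 15, to 4389, 2258 and 2131 with voom and sample quality weights, and to 221, 179 and 42 when tested against a fold of 1.2, which asks for a larger change. Single preps, with fewer samples, gave 97 (75 and 22), 10 (9 and 1) and 215 (160 and 55). Without 24-month replicates 13 and 4, an alternative chosen after seeing the data, as were those with the length slope, 1455 genes were lower. In the fit of all brain libraries without 28-month replicate 15, counts of all genes, higher and lower were 123, 73 and 50 from 3 to 9 months, 294, 259 and 35 from 15 to 24 months and 525, 251 and 274 from 24 to 28 months. Without 24-month replicate 13 they were 70, 46 and 24, then 107, 102 and 5, then 508, 309 and 199. Both sets of interval counts were chosen after seeing the data. The cause of the shifts with voom and without 28-month replicate 15 was not tested.

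With the replicate number as a block, although the numbers do not pair the mice, 881 genes were called, 622 higher and 259 lower, on fewer residual degrees of freedom; 1 of 15 libraries correlated best with its own number. With mouse as a block, 3222 genes differed between brain and liver in place of 3766.

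Of 97 named called genes 77 kept the call without each library. The other 20 include Alas2, Gad1, Mid1, Sp100, Arc, Jun, Hist1h1e, Hist1h1c, Mt1, Trim30a, Sult1a1 and G6pdx, each lost on leaving out 4 or more single libraries. Hbb-bs was lost without 3-month replicate 16 or 24-month replicate 10, Grin2c without 3-month replicate 13 or 16, Prox1 without 3-month replicate 9 or 16, Npy without 3-month replicate 13 and Hist1h2be without 3-month replicate 16. Fdft1 was lost without 24-month replicate 4 or 3-month replicate 3, and Col1a2 without 3-month replicate 5, 8 or 10. Other fits also cost calls among the named genes: 14 in the fit of all 82 brain libraries and 9 with the clock gene score. With the length slope 11 were lost, and with the replicate block 35. Among the genes that were not called, Cdkn1a ran from -0.0157 (without 24-month replicate 5) to 0.17 without 1 library and gave -0.00301 in prep 3 alone, and Mbp gave -0.35 in prep 2 alone.

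Depth limits genes well below 1 CPM, and fold changes of Lcn2, Igfbpl1 and Pcdhb1 rest on libraries near 0. The tissue label gives no region, so dissection cannot be told apart from age in single libraries. The medians of ribosomal protein genes and nuclear oxidative phosphorylation subunits were smaller without replicate 13 and stayed above 0.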
